A study of Homo sapiens with 35 samples.

Results

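The regions described here are the ATAC-seq peaks that lie over nuclear transfer RNA (tRNA) genes. A peak was taken as a member when it overlapped by at least 1 bp a gene that RefSeq lists as a tRNA on chromosomes 1 to 22. The rule was met by 278 of 301177 peaks on those chromosomes (0.0923%), and together they lay over 374 of 425 tRNA genes. ATAC-seq uses a transposase to insert sequencing adapters into accessible DNA, so a peak marks a stretch of open chromatin. The study asks what ectopic MYC does to hematopoietic progenitors grown from H1, a widely used line of human embryonic stem cells. The labels describe 35 libraries in 18 groups of 1 to 3, collected on 6 days from day 10 to day 20. Libraries titled doxee17 numbered 12 with doxycycline and 11 without (batch 1), and those titled h1 numbered 12, all without (batch 2). The labels give H1 as the cell line of all of them and do not spell out doxee17. The deposited peak list pools libraries and holds no value for any of them. Titled lines, days and doxycycline treatment could therefore not be set against each other, and a replicate error does not exist for any value.

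Transfer RNAs carry amino acids to the ribosome, and their genes are transcribed by RNA polymerase III. The promoter of a tRNA gene lies inside the gene, in stretches called the A box and the B box, which the factor TFIIIC recognises. TFIIIC places TFIIIB just upstream of the gene, TFIIIB recruits the polymerase, and transcription ends at a short run of T. MYC is known to contact TFIIIB and to raise polymerase III transcription, and growing cells need much tRNA. Human tRNA genes occur in many copies, and copies of 1 gene can be identical. A symbol such as TRH-GTG1-3 gives the amino acid letter (H, histidine), the anticodon (GTG), a number for the mature sequence and a number for the copy.

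All values are the authors' fold enrichment at the summit of a peak, a linear ratio of the pooled read pileup to a single background for the whole genome. Intervals are exact 95% Poisson intervals recovered from the pileup. They cover counting error only and say nothing of the spread between cultures. All 8 blood progenitor marker genes looked up on these chromosomes, among them CD34, RUNX1 and SPI1, had a peak reaching to within 1 kb of a gene end, at 14.8 to 109-fold. The hepatocyte genes ALB and AHSG (0 of 2) had none. The 3 endothelial and 4 pluripotent genes also had peaks, at 28.4 to 82.9-fold and 1.93 to 37.7-fold. A summit within 1 kb of an end, a stricter rule, was listed for 84.2% of 18969 protein-coding genes. Their median was 47.8-fold, with genes lacking one counted as 0. SPI1 (109-fold), RUNX1 (80.9) and KIT (59.8) stood above it by that rule. MYB (37.9), PTPRC (30.9) and CD34 (14.8) stood below, and GATA2 and TAL1 had no such summit. A listed peak was thus common and does not by itself mark blood identity. The pool holds libraries of several days, and which of them gave these signals is not known.

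A few of the genes are shown to let the peak values be read against the promoter inside the gene. Sequences are from RefSeq windows of GRCh38.p14 around the starts of other genes that happen to cover a tRNA gene, which gave 14 whole genes and parts of 13 more. They are written 5′ to 3′ along the strand on which the B box letters GTTCNANNC read, since no strand is listed for tRNA genes. Capitals mark those letters and, where present, the A box start TGGCNNAG. The first 3 are an arginine gene under the highest of all these peaks (chr3:45688999-45689071, minus strand), the first 72 of the 74 bases of a threonine gene whose peak summit stood 4.5 bp from the gene's centre (chr19:33177057-33177128, plus strand) and an isoleucine gene whose peak lay 111577 bp from the nearest protein-coding gene end (chr6:27020346-27020439, plus strand).
TRR-ACG2-1: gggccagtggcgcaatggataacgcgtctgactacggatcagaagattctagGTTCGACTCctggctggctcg
TRT-AGT1-3: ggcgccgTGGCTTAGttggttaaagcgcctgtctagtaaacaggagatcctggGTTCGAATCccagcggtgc
TRI-TAT2-2: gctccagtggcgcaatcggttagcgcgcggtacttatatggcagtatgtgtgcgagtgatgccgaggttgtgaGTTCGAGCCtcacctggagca

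The B box letters were found in 14 of the 14 whole genes, against 7.48% of 35116 windows of the same table searched on both strands. TGGCNNAG stood in 1 of the 14, against 21.4% of windows. Other forms of the A box were not searched, so this count does not tell how many genes hold an A box. The E-box CACGTG, the sequence to which MYC and its partner MAX bind, and the TATA letters TATAAA were in 0 of the 14 genes, against 7.26% and 11.5% of windows. The windows are longer than a tRNA gene, so the shares are not like for like. A run of TTTT followed within 30 bases of the gene's end in 11 of 14.

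Several genes with equal letters lay under peaks of different height. The next 6 sequences show these copies. TRH-GTG1-3 (chr1:148281365-148281436, plus strand) and TRH-GTG1-9 (chr15:45201151-45201222, plus strand) were identical over 72 bases. TRP-TGG3-2 (chr14:20684016-20684087, plus strand) and TRP-TGG3-5 (chr16:3188094-3188165, plus strand) were as well. TRL-AAG2-2 (chr6:28943622-28943703, minus strand) was equal to the 63 bases at hand of TRL-AAG2-4 (chr16:22297159-22297221, plus strand).
TRH-GTG1-3: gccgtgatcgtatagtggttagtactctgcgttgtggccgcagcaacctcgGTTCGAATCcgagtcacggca
TRH-GTG1-9: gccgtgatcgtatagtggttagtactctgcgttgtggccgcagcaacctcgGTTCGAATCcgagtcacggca
TRP-TGG3-2: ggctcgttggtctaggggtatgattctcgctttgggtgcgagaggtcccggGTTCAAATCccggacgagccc
TRP-TGG3-5: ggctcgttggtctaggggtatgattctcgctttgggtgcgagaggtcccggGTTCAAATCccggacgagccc
TRL-AAG2-2: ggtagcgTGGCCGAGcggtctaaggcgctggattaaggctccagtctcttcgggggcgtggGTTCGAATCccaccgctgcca
TRL-AAG2-4: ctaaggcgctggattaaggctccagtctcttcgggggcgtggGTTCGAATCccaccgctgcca

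The peak over TRH-GTG1-3 reached 51.1-fold (49.7 to 52.6) and the one over TRH-GTG1-9, which also held 2 other copies, 134-fold (132 to 137). TRP-TGG3-2 lay under a peak of 41.4-fold (40.1 to 42.7) and TRP-TGG3-5 under one of 23.5-fold (22.5 to 24.5). Both of these peaks held other tRNA genes and an end of a coding gene. Their summits lay at −1173 and 1496 bp from the 5′ ends of TRP-TGG3-2 and TRP-TGG3-5, nearer to TRY-GTA5-5 and TRP-AGG2-8. TRL-AAG2-2 had 37.9-fold (36.6 to 39.1) and TRL-AAG2-4 had 220-fold (217 to 223). In each of the 3 pairs the counting intervals stood apart. The pair TRG-CCC2-1 and TRG-CCC2-2, equal over 53 bases, had 120-fold (118 to 123) and 121-fold (119 to 124), which overlapped. The summit over TRL-AAG2-2 was 3.5 bp from the gene's centre, but the summit of the TRH-GTG1-9 peak lay at −2371 bp from that gene's 5′ end, beside TRH-GTG1-7. A fold is a value of the whole peak and not of each gene in it. How the processing treated reads that fit several copies is not given in the sources used here.

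The next 5 sequences show genes with and without a peak. TRI-AAT8-1 (chr6:27668583-27668656, plus strand) lay under a peak and TRI-AAT1-1 (49 of its 74 bases, chr6:57800236-57800284, plus strand) did not, and the 49 shared bases differed at 3 positions. TRQ-CTG7-1 (60 of its 72 bases, chr1:148328812-148328871, plus strand) also had no peak. TRN-GTT4-1 (chr1:16889677-16889750, plus strand) and TRN-GTT6-1 (chr1:143735920-143735993, minus strand) differed at 3 of 74 positions.
TRI-AAT8-1: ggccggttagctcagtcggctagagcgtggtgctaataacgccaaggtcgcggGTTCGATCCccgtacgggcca
TRI-AAT1-1: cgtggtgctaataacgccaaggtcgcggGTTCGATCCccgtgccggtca
TRQ-CTG7-1: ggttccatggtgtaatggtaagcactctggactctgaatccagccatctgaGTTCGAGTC
TRN-GTT4-1: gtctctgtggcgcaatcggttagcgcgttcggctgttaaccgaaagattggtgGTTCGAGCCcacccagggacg
TRN-GTT6-1: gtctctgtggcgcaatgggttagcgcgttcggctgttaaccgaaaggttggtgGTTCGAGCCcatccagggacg

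TRI-AAT8-1 lay under a peak of 25.9-fold (24.9 to 27.0), 6165 bp wide and shared with 2 other tRNA genes, whereas the nearest peak to TRI-AAT1-1 was 45216 bp away. The nearest peak to TRQ-CTG7-1 was 4930 bp away. Both genes without a peak held the B box letters, and TTTT followed TRI-AAT1-1. The peak over TRN-GTT4-1 had 26.7-fold (25.6 to 27.7) and the one over TRN-GTT6-1 6.89-fold (6.37 to 7.44). The B box letters were thus present in genes with no peak, a low peak and a higher one.

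Of the 425 tRNA genes, 374 (88.0%, Wilson 95% interval 84.6 to 90.8) lay under a peak. Among 5780 other genes of at most 150 bp, 19.2% did. For tRNA pseudogenes, which no longer give a working tRNA, the count was 25 of 86 (29.1%, 20.5 to 39.4), and 5 of these 25 lay under a peak that also held a tRNA gene. Small nuclear RNA genes were covered in 89 of 146 (61.0%), small nucleolar RNA genes in 230 of 1144 (20.1%) and microRNA genes in 565 of 1793 (31.5%). Peaks over tRNA genes had a median fold of 31.7, against 8.77 over tRNA pseudogenes, 13.2 over small nucleolar RNA genes, 23.4 over microRNA genes and 90.8 over small nuclear RNA genes. Without chromosome 6 the median over tRNA genes was 53.9. A peak was thus listed over most tRNA genes, and of these classes small nuclear RNA genes alone had a higher median.

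The 278 peaks ranged from 1.97 to 238-fold, with an interquartile range of 13.6 to 80.4. The median of all peaks was 3.46 (2.12 to 8.61), and 265 of the 278 (95.3%) stood above it. Peaks over 100-fold numbered 51 (18.3%), against 2.15% of all peaks. That share was higher over small nuclear RNA (47.7%), microRNA (26.8%) and small nucleolar RNA genes (26.4%), and 0% over tRNA pseudogenes. Of the 278 peaks, 21 (7.55%) were under 5-fold, against 62.2% of all peaks. They were also wide, at a median of 1748 bp (1105 to 2563) against 483 bp. Height and width rose together, with a Spearman correlation of 0.75 across the 278 peaks and 0.82 across all peaks. Within each band of width the median over tRNA genes remained the higher. The medians were 6.65 against 2.84 under 1000 bp, 26.0 against 14.5 from 1000 to 2000 bp and 86.8 against 47.8 from 2000 bp up. Widths were not equal within the bands, at medians of 690 against 426 bp, 1468 against 1317 bp and 2822 against 2727 bp.

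**Figure D1:**
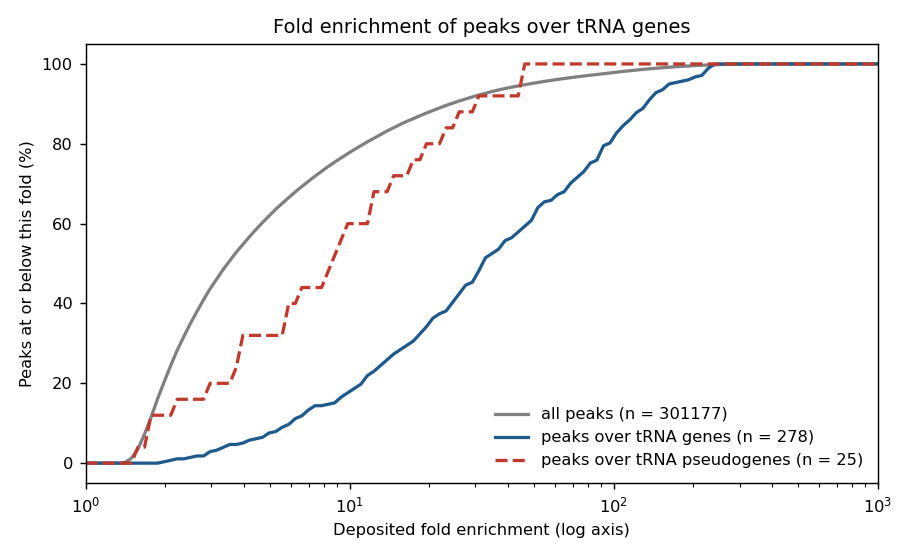
Cumulative share of peaks (vertical axis, percent) at or below each deposited fold enrichment (horizontal axis, log scale) for all 301177 peaks on chromosomes 1 to 22, the 278 peaks over tRNA genes and the 25 over tRNA pseudogenes. The curve for tRNA genes lies to the right, with its middle at 31.7-fold against 3.46 for all peaks and 8.77 for pseudogenes.

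The highest peak, 238-fold (235 to 241), lay over the arginine gene TRR-ACG2-1 on chromosome 3 (45688060 to 45691077), at an end of SACM1L, which encodes a phosphoinositide phosphatase. TRR-ACG1-3 on chromosome 14 (22928431 to 22931329) had 236-fold (233 to 239), at an end of PRMT5, a protein arginine methyltransferase. These 2 intervals overlapped. The third, 230-fold (227 to 233), held both TRL-CAG2-1 and TRL-CAG2-2 on chromosome 16 (57299261 to 57301586) and was 14589 bp from the nearest coding gene end, that of PLLP. TRR-TCG1-1 on chromosome 15 (89333650 to 89336008) followed with 223-fold, at POLG, the mitochondrial DNA polymerase.

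TRL-AAG2-4 on chromosome 16 (22296129 to 22299103) had 220-fold at an end of POLR3E, which itself encodes a subunit of RNA polymerase III. The initiator methionine gene TRX-CAT1-1 on chromosome 1 (153670331 to 153672733) had 218-fold, at ILF2. TRT-AGT1-3 on chromosome 19 (33175985 to 33178191) had 217-fold, 186 bp from WDR88. The peak over TRG-TCC1-1 and TRV-CAC3-1 on chromosome 19 (4722608 to 4725194) had 216-fold, at the peptidase gene DPP9. TRI-TAT1-1 lay in the widest of the peaks, 15607 bp on chromosome 19 (39400693 to 39416299), with 213-fold (210 to 216). That peak also took in ends of PLEKHG2 and of ZFP36, a gene for a protein that promotes mRNA decay, but its summit was 202 bp from the centre of the tRNA gene. TRK-CTT2-3 and TRV-CAC1-5 shared the tenth, 201-fold (198 to 204), on chromosome 5 (181221278 to 181225247) at TRIM41. Of these 10 peaks, 9 had a coding gene end within 1 kb.

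The 3 lowest were TRW-CCA5-1 on chromosome 7 (99469633 to 99469984) at 1.97-fold (1.70 to 2.27), TRG-GCC2-5 on chromosome 16 (70789382 to 70789637) at 2.00 (1.73 to 2.31) and TRY-GTA7-1 on chromosome 14 (20659890 to 20660212) at 2.12 (1.83 to 2.43). Their intervals overlapped and their widths were 352, 256 and 323 bp. All 3 stood below the median of all peaks in fold and in width.

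The summits lay close to the nearest tRNA gene under each peak, a distance that the overlap rule and the width of the peak bound. The median distance from a summit to the centre of the nearest tRNA gene under the peak was 102 bp (interquartile range 53.6 to 190), in peaks with a median width of 1748 bp of which the tRNA genes took up a median of 5.31%. The summit was inside the gene in 54 peaks (19.4%), within 250 bp of its edge in 224 (80.6%) and more than 1 kb away in 6. Counted by gene, 280 tRNA genes had a summit within 500 bp, against 374 under a peak. Among the 58 peaks under 1000 bp wide the median was 67.5 bp, and 58 of 58 were within 250 bp, a distance that the width of such a peak bounds. In peaks with a coding gene end within 1 kb the median was 148 bp, and in those more than 10 kb from any coding end 94.5 bp. Of the 14 whole genes that could be oriented, 7 had the summit upstream of the 5′ end, 3 inside the gene and 4 downstream, with a median of −24.0 bp (range −2371 to 3799).

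**Figure D2:**
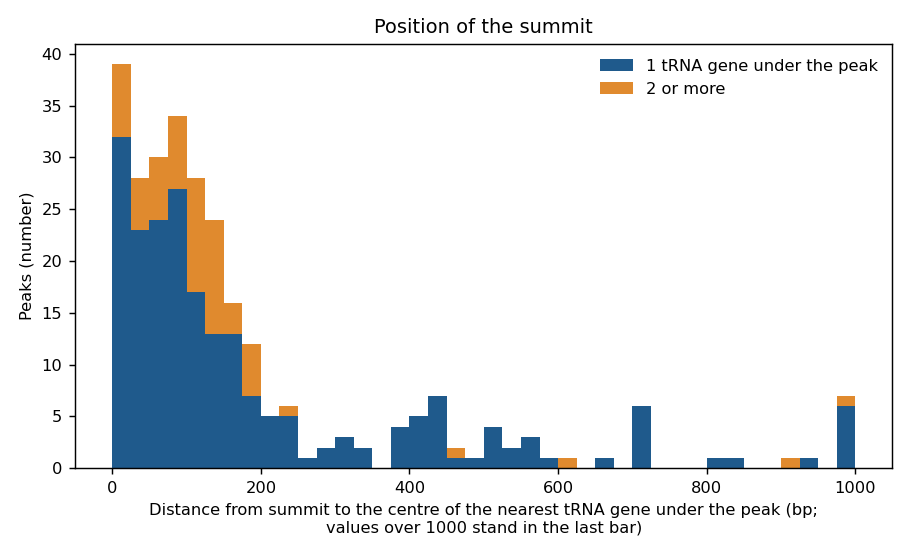
Number of peaks (vertical axis) by the distance from the summit to the centre of the nearest tRNA gene under the peak (horizontal axis, bp, bars of 25 bp), split by whether a peak holds 1 tRNA gene or more. Most of the 278 peaks stand at the left, with a median of 102 bp, and the last bar also gathers all values above 1000 bp.

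Sorted by amino acid, 21 of the 22 classes, which count initiator and elongator methionine apart and include selenocysteine, had most of their genes under a peak, and selenocysteine had 1 of 2. All genes were covered for 8 classes: asparagine (21), aspartate (13), glutamate (15), histidine (9), initiator methionine (8), proline (20), tryptophan (7) and valine (29). Cysteine had the lowest share after selenocysteine, 16 of 29 (55.2%), followed by alanine with 26 of 37 (70.3%), lysine with 21 of 27 (77.8%) and glutamine with 15 of 19 (78.9%). The acidic amino acids led the medians over covered genes, glutamate with 110-fold (30.3 to 141) and aspartate with 107-fold (11.3 to 154). Both include copies in the chromosome 1 repeats described below, 4 for glutamate (131 to 141-fold) and 5 for aspartate (77.1 to 141-fold). Each of these 4 glutamate copies shared its peak with an aspartate copy. Cysteine had the lowest median, 10.7-fold (2.38 to 91.0), then elongator methionine with 14.3-fold (2.54 to 141). Within every class with more than 1 covered gene the values spread widely, so the ranges of all classes overlapped. Genes under 1 peak share its value.

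**Figure D3:**
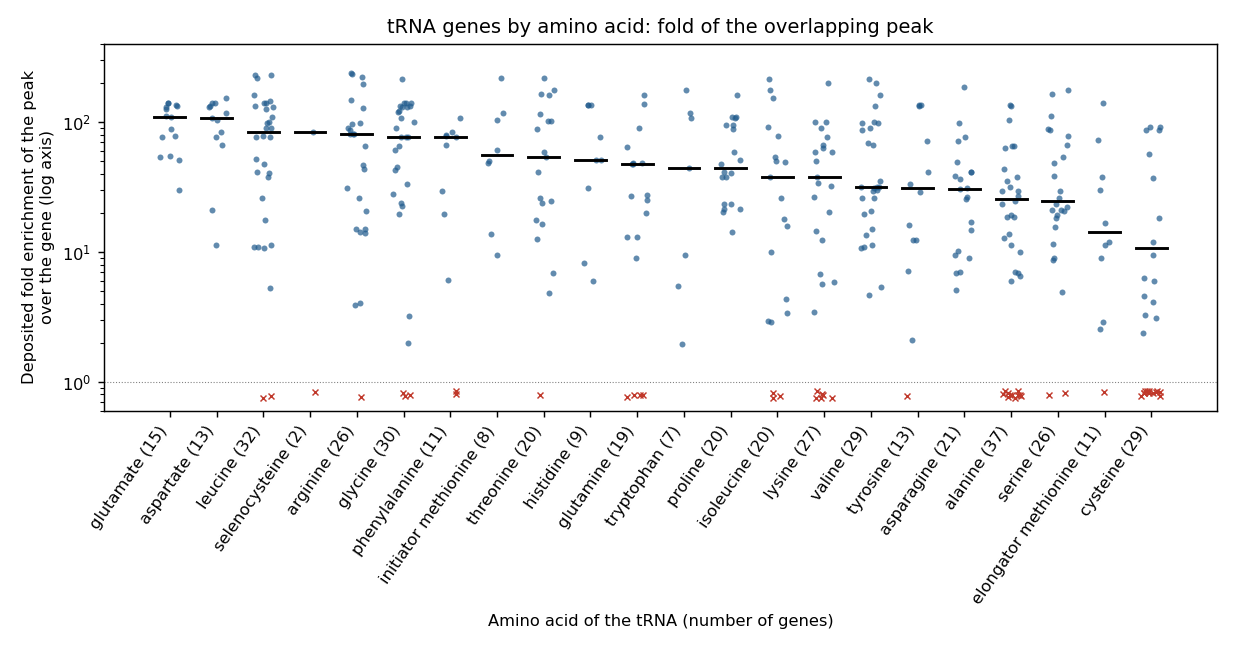
Deposited fold of the peak over each tRNA gene (vertical axis, log scale), by amino acid with the number of genes in brackets. Points are genes, black bars are medians over covered genes, and red crosses under the dotted line are genes with no peak, of which cysteine has 13 and alanine 11.

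The highest gene of each class differed more than 2-fold between classes. Each gene took the fold of the whole peak over it, whose summit could lie nearer to another gene. The 162-fold peak below held 4 tRNA genes and had its summit inside the threonine gene TRT-TGT6-1. The 177-fold peak had its summit outside all of its tRNA genes, near BORCS6. For 14 of the 22 classes the top gene stood under a peak of more than 150-fold, among them TRN-GTT2-5 for asparagine (chromosome 17, 38751781 to 38751854, 185-fold), TRS-GCT4-3 for serine and TRW-CCA3-3 for tryptophan (chromosome 17, 1 shared peak of 177-fold), TRP-TGG3-1 for proline (chromosome 5, 181188854 to 181188925, 162-fold), TRQ-TTG1-1 for glutamine (chromosome 17, 49192528 to 49192599, 161-fold) and TRD-GTC2-8 for aspartate (chromosome 12, 96036021 to 96036092, inside LTA4H, 154-fold). TRM-CAT6-1 for elongator methionine (chromosome 16, 87384022 to 87384094, inside FBXO31) and TRE-CTC1-5 for glutamate (chromosome 1, 161469399 to 161469470) had 141-fold each. TRA-AGC8-2 for alanine and TRY-GTA5-1 for tyrosine lie inside TRIM55 on chromosome 8 and shared a peak of 137-fold that takes in an end of that gene. TRH-GTG1-7 for histidine (chromosome 15, 45198606 to 45198677, inside SHF) had 134-fold and TRF-GAA1-5 for phenylalanine (chromosome 13, 94549650 to 94549722) 107-fold. Selenocysteine and cysteine had no gene over 100-fold. The highest cysteine value, 91.0-fold (89.1 to 92.9), was that of a peak at an end of LASP1. TRC-GCA2-2 (chromosome 17, 38867645 to 38867716) and TRC-GCA4-1 shared this peak, and TRC-GCA4-1 was the nearer to its summit.

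By anticodon there were 48 classes, of which 47 had at least 1 gene under a peak and 30 had every gene under a peak. The highest gene passed 50-fold in 47 and 100-fold in 40. The exception was the tyrosine anticodon ATA, with its single gene TRY-ATA1-1 inside ARPC2 on chromosome 2 (218245826 to 218245918), 268 bp from a peak of 2.00-fold. Alanine genes without a peak were all of anticodon AGC, covered in 14 of 25, while the CGC genes (4 of 4) and the TGC genes (8 of 8) were covered throughout. A copy under a peak was therefore listed for all but 1 of the anticodon classes of the table.

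Initiator methionine tRNA starts translation, and its 8 genes carry the symbol TRX-CAT1. TRX-CAT1-1 on chromosome 1 (153671250 to 153671321) had 218-fold (215 to 221). TRX-CAT1-8 on chromosome 17 (82494721 to 82494792) had 118-fold (116 to 120) and TRX-CAT1-2 on chromosome 6 (26286526 to 26286597) 103-fold (101 to 105), the latter in a peak whose summit was 1103 bp away, towards the histone gene H4C8. The summit over TRX-CAT1-8, by contrast, was 1.5 bp from the centre of the gene. The other 5 were all on chromosome 6, with TRX-CAT1-7 at 60.8-fold, TRX-CAT1-6 at 50.0, TRX-CAT1-3 at 48.8, TRX-CAT1-5 at 13.8 and TRX-CAT1-4 at 9.46 (8.85 to 10.1). The intervals of TRX-CAT1-6 (48.5 to 51.4) and TRX-CAT1-3 (47.4 to 50.3) overlapped, and all other neighbours in this order stood apart by counting error. Genes of 1 name thus spanned 23.0-fold. The selenocysteine tRNA, which reads UGA as selenocysteine, has the genes TRU-TCA1-1 and TRU-TCA2-1. TRU-TCA1-1 on chromosome 19 (45478601 to 45478687) had 83.6-fold (81.8 to 85.5), and TRU-TCA2-1 on chromosome 22 (44150657 to 44150740), inside PARVB, was 3641 bp from the nearest peak.

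Genes with 1 mature sequence number often differed in the height of their peaks. Of the 24 such families with 4 or more copies, 17 had a ratio of highest to lowest covered copy above 5, and the median ratio was 7.44. The glycine family TRG-GCC2 ran from 2.00-fold (TRG-GCC2-5) to 89.6-fold (TRG-GCC2-6), a ratio of 44.8. The 89.6-fold peak was 10035 bp wide and held 5 tRNA genes, with TRK-TTT3-5 and not TRG-GCC2-6 nearest to its summit. The histidine family TRH-GTG1 ran from 5.95-fold at TRH-GTG1-6, inside NFIB, to 134-fold (ratio 22.6), cysteine TRC-GCA2 from 4.15 to 91.0 (21.9), valine TRV-CAC1 from 10.8 to 201 (18.6) and asparagine TRN-GTT2 from 10.2 to 185 (18.1). At the other end were TRE-CTC1, TRG-TCC2 and TRL-CAG1, with ratios of 1.83 to 1.85 and most copies in the chromosome 1 repeats described below. Between covered genes of 1 name in different clusters the median ratio was 2.31 (351 pairs), between genes of different names in 1 cluster 2.00 (2271 pairs) and between genes that shared neither 3.02 (65774 pairs). Pairs of genes under 1 peak were left out of these counts. The peaks with the highest cysteine, valine and asparagine values above had summits 606, 915 and 806 bp from the nearest tRNA gene's centre. These ratios thus compare whole peaks and not single copies.

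The mature sequence number itself went with the share covered. Number 1 of each anticodon had 108 of 112 genes under a peak and a median of 77.1-fold, number 2 had 103 of 104 and 66.9, numbers 3 to 4 had 83 of 94 and 38.4, numbers 5 to 9 had 67 of 80 and 15.9, and numbers of 10 or more had 10 of 27 (37.0%) and 26.2. The last group held 14 cysteine, 9 alanine and 4 asparagine genes, with 4, 2 and 4 of them covered. Without cysteine and alanine the medians from number 1 to numbers 5 to 9 were 78.0, 71.9, 37.9 and 19.0, and 52 of 63 genes of numbers 5 to 9 were covered. The fall in median with the number was therefore present without those 2 amino acids up to number 9, while the low share at 10 or more came from them.

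Neighbouring tRNA genes were close, at a median of 3832 bp to the nearest other tRNA gene. With neighbours up to 50 kb apart joined, 266 of 425 genes (62.6%) fell into 16 clusters of 5 or more. Genes alone within 50 kb were covered in 67 of 80 (83.8%) with a median of 88.5-fold, genes in clusters of 2 to 4 in 75 of 79 (94.9%) with 60.8-fold, and genes in clusters of 5 or more in 232 of 266 (87.2%) with 36.2-fold. The share covered thus did not follow cluster size, while the pooled median fold was lower in larger clusters. Of the 266 genes, 138 lay in 6 chromosome 6 clusters with medians of 6.27 to 37.8-fold. Clusters on chromosomes 7, 14 and 16 had 10.9 to 41.0-fold. Those on chromosomes 1, 17, 11, 12 and 5 had higher medians, at 131, 107, 89.3, 83.5 and 69.4-fold. The lower median was therefore not a trait of each large cluster, and cluster size was not tested without chromosome 6. A peak held 1 tRNA gene in 218 cases (median 26.7-fold), 2 in 41 (66.9-fold), 3 in 6 (67.1-fold), 4 in 9 (98.5-fold) and 5 in 4 (132-fold). Of the 60 peaks with 2 or more, 48 held genes for different amino acids.

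**Figure D4:**
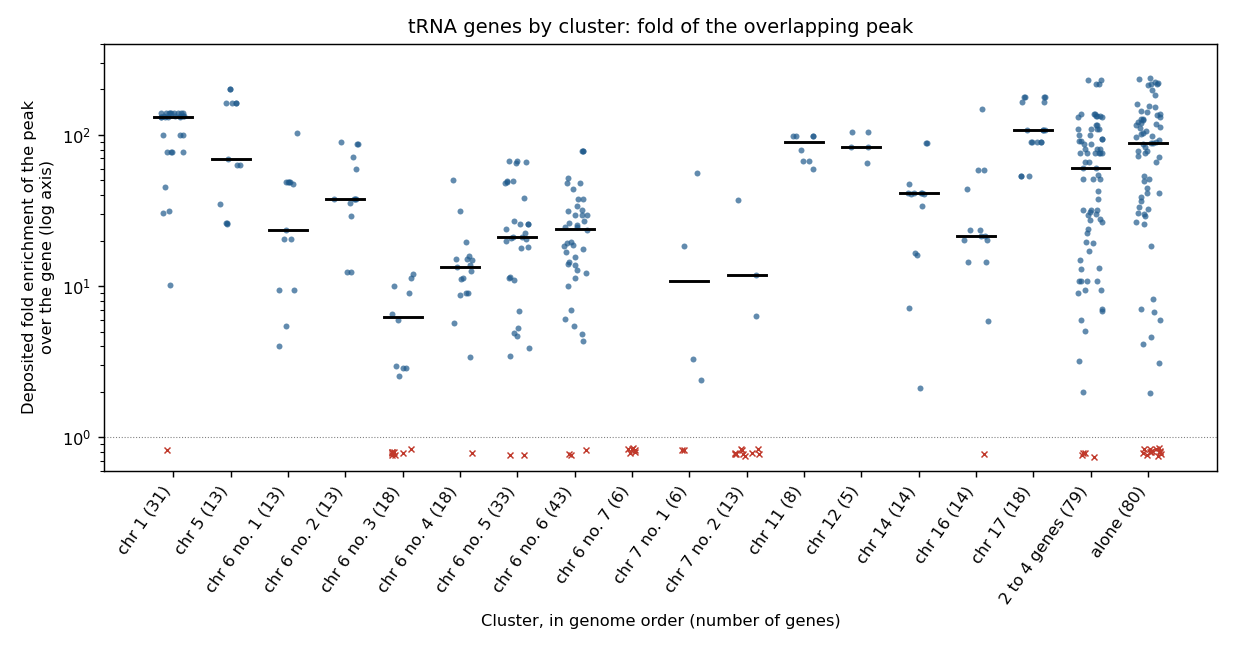
Deposited fold of the peak over each tRNA gene (vertical axis, log scale) for the 16 clusters of 5 or more genes in genome order, with the number of genes in brackets, then for genes in smaller clusters and genes alone. Points are genes, black bars are medians over covered genes and red crosses are genes with no peak, which fill the seventh chromosome 6 cluster (6 of 6) and most of the second chromosome 7 cluster (10 of 13).

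The chromosome 1 cluster (161399700 to 161540314) held 31 genes for 6 amino acids, of which 30 lay under 11 peaks with a median of 131-fold (10.2 to 141). It contains repeats with the gene order glutamate CTC, glycine TCC, aspartate GTC, leucine CAG and glycine GCC, spaced a median of 7380 bp apart by the glutamate gene. Each of 3 successive repeats lay under a single peak with 5 tRNA genes, at 131, 139 and 133-fold and widths of 6962, 6969 and 7041 bp, and the next repeat had 4 of the genes under a peak of 141-fold (138 to 143). The first unit, without a glutamate gene and with 4 tRNA genes from TRG-TCC4-1 to TRG-GCC1-1, had a lower peak of 77.1-fold (75.3 to 78.9). Peak height thus differed between the units by more than counting error, also between the units at 131-fold (129 to 134) and 139-fold (137 to 142). The spread between cultures is unknown, and how reads that fit several units were treated is not given. TRG-GCC4-1, 2739 bp from the nearest peak, was the only uncovered gene there, and TRN-GTT2-2 had the lowest peak at 10.2-fold. Nearest coding genes at the distal end were the Fc receptor genes FCGR2A and FCGR3A.

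**Figure D5:**
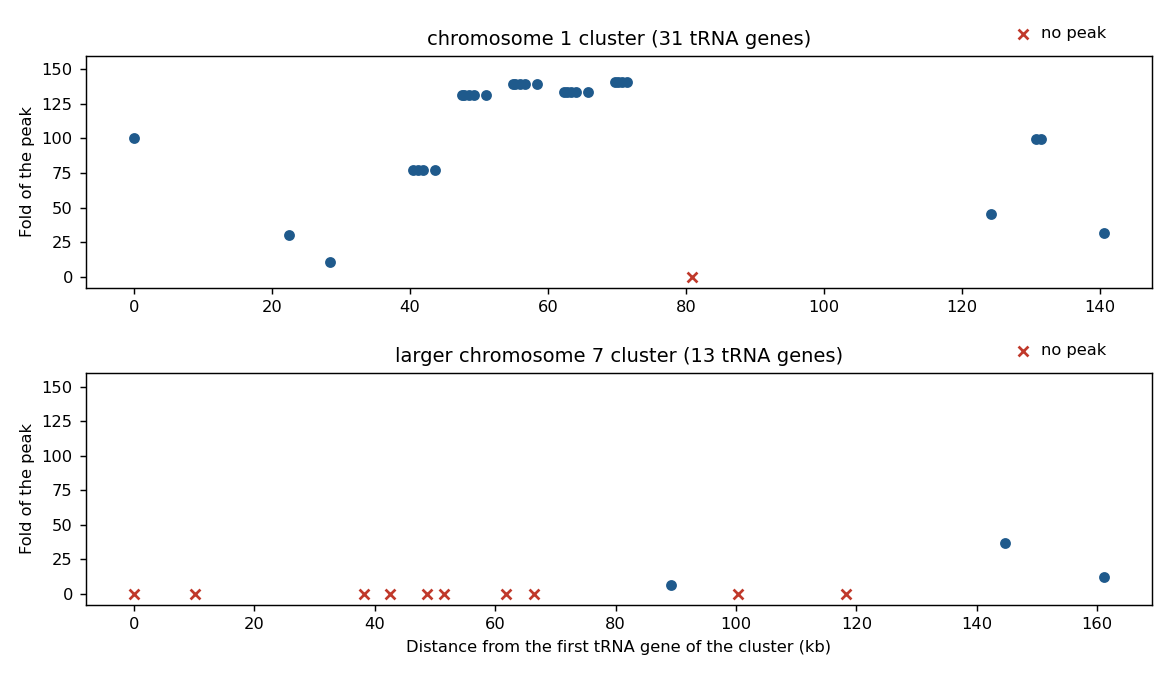
Fold of the peak over each tRNA gene (vertical axis, linear) by distance from the first gene of the cluster (horizontal axis, kb) in the chromosome 1 cluster (top) and the larger chromosome 7 cluster (bottom). Points at equal height share a peak and red crosses at 0 are genes with no peak, 1 of 31 in the upper panel and 10 of 13 in the lower.

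The clusters on chromosome 7 looked different. The first (149310190 to 149415209) held 6 cysteine genes, of which 4 had a peak, from 2.38-fold at TRC-GCA13-1 to 56.5-fold at TRC-GCA11-1. The second (149546540 to 149707740) held 12 cysteine genes and 1 serine gene, and 3 of the 13 had a peak (6.32, 11.9 and 37.0-fold). Outside chromosome 7, cysteine genes on chromosome 17 reached 91.0-fold (TRC-GCA2-2 and TRC-GCA4-1) and 87.1-fold (TRC-GCA2-3 and TRC-GCA2-4 in 1 peak at an end of PLXDC1). The remaining covered cysteine genes outside chromosome 7 were all below 11.9-fold. They were TRC-GCA14-1, also on chromosome 17, TRC-GCA9-1 (6.01-fold), TRC-GCA8-1 (4.62-fold), TRC-GCA2-1 (4.15-fold) and TRC-GCA5-1 (3.09-fold). Low cysteine peaks were thus not confined to chromosome 7. Of the 13 cysteine genes without a peak, 11 were in the 2 clusters on chromosome 7.

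Chromosome 6 carried 154 tRNA genes, 132 of them covered by 111 peaks with a gene median of 20.6-fold. Its main group spans 2.70 Mb (26286526 to 28989083) and holds 144 genes for 19 amino acid classes, 33.9% of all tRNA genes, in a stretch that also holds replication-dependent histone genes such as H4C8 and H2BC13. There 130 genes were covered, at 2.54 to 103-fold, and 1 passed 100-fold. Its 6 clusters had, in genome order, 13 of 13 genes covered (26286526 to 26331515, median 23.4-fold), 13 of 13 (26521208 to 26594962, 37.8), 10 of 18 (26673362 to 26828299, 6.27), 17 of 18 (27158127 to 27335062, 13.5), 31 of 33 (27478812 to 27795932, 21.1) and 40 of 43 (28474552 to 28989083, 24.0). The third, with 10 alanine, 5 elongator methionine and 3 isoleucine genes had the lowest median. A seventh cluster (57800211 to 57856473), with 3 alanine, 2 isoleucine and 1 elongator methionine gene, had 0 of 6 covered, and the nearest peak to any of them, 3214 bp away, had 1.74-fold. Alanine, isoleucine and elongator methionine were the amino acids of both these clusters.

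The other large clusters were covered almost throughout. On chromosome 17 (8119155 to 8227064) 18 genes for 11 amino acids lay under 5 peaks of 53.7 to 177-fold (median 107). The widest, 10035 bp wide, held 5 genes from TRK-TTT3-5 to TRG-GCC2-6 near HES7 at 89.6-fold, and another held TRW-CCA3-3, TRS-GCT4-3, TRT-AGT1-1 and TRI-AAT5-5 at 177-fold (175 to 180), with its summit 2629 bp from the nearest of them, near BORCS6. All genes were covered on chromosome 5 (181164154 to 181222467, 13 genes, median 69.4), chromosome 11 (59550629 to 59566452, 8 genes, 89.3), chromosome 12 (124921755 to 124940037, 5 genes, 83.5) and chromosome 14 (20609336 to 20684087, 14 genes, 41.0). On chromosome 16 (3150674 to 3192060) 13 of 14 were, at a median of 21.4-fold and with TRR-CCG1-3 at 148-fold.

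The peaks were also described by distance to an end of a protein-coding gene, since many promoters of such genes are open. A coding end lay within 1 kb of 51 peaks (18.3%), against 8.45% of all peaks, and inside 44 of them. Without chromosome 6 the share of peaks was 28.1%. Distance was taken from the edges of a peak, so a wide peak reaches a gene end more readily. The peaks over tRNA genes were the wider, at a median of 1748 against 483 bp. Measured from the tRNA gene itself, 54 of 425 genes had a coding end within 1 kb. The median of the 51 peaks was 107-fold, against 16.1 for all peaks in that band. At 1 to 10 kb there were 54 peaks with a median of 42.6-fold, against 3.15. More than 10 kb away were 173 peaks (62.2%), against 67.9% of all peaks, with a median of 19.9-fold against 3.32. Of these 173, 17 (9.83%) passed 100-fold, against 0.422% of all peaks that far from a coding end. More than 50 kb away the median of 71 peaks was 14.4-fold against 3.27. Peaks over tRNA genes were thus highest at coding ends, and at every distance their median was several times that of all peaks.

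The 5 highest peaks more than 10 kb from a coding end were the leucine pair TRL-CAG2-1 and TRL-CAG2-2 at 230-fold, TRQ-TTG1-1 on chromosome 17 (49191550 to 49194480) at 161-fold (159 to 164), TRI-TAT2-1 on chromosome 2 (42809127 to 42811984) at 153-fold (151 to 156), TRL-TAA1-1 on chromosome 6 (144214958 to 144218020) at 145-fold (143 to 148) and the chromosome 1 repeat with TRE-CTC1-5 (161468101 to 161473898) at 141-fold. Of 18 peaks over 150-fold, 14 had a coding end within 1 kb. The peak of TRC-GCA8-1, 667 bp from DCAF4, showed that a near coding end did not go with a high value in each case, at 4.62-fold. It was the lowest of the 51, and the next had 23.5-fold.

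Distance and chromosome overlapped. Chromosome 6 had 94 of its 111 peaks more than 10 kb from a coding end, at a median of 17.1-fold, 13 at 1 to 10 kb (37.8-fold) and 4 within 1 kb (87.5-fold). The other chromosomes had medians of 31.8-fold (79 peaks), 43.6-fold (41) and 110-fold (47) in the same bands. The order of the bands was the same in both. Counted by gene, 54 of 54 genes within 1 kb of a coding end were covered, 90 of 95 at 1 to 10 kb and 230 of 276 (83.3%) farther away, with medians of 100, 66.1 and 26.3-fold. Across the 374 covered genes, many of which share a peak, the Spearman correlation of fold with this distance was −0.49. Genes inside a protein-coding gene were covered in 35 of 43 (median 80.5-fold) and those outside in 339 of 382 (41.4-fold). Whether a peak at a shared site came from the coding promoter or the tRNA gene cannot be told apart in this list.

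Of the 51 tRNA genes without a peak, 12 were within 1 kb of one and 11 more than 10 kb away, with a median of 3679 bp. Besides cysteine (13) and alanine (11), lysine had 6, and the other classes 4 or fewer. They were TRQ-CTG1-1, TRQ-CTG4-2, TRQ-CTG7-1 and TRQ-TTG4-1 for glutamine, TRG-CCC3-1, TRG-GCC3-1 and TRG-GCC4-1 for glycine, TRI-AAT1-1, TRI-AAT9-1 and 1 unnumbered gene for isoleucine, TRL-AAG4-1 and TRL-CAA5-1 for leucine, TRF-GAA4-1 and TRF-GAA6-1 for phenylalanine, TRS-AGA3-1 and TRS-AGA5-1 for serine, TRT-AGT4-1 for threonine, TRR-TCT4-1 for arginine, TRM-CAT7-1 for elongator methionine, TRY-ATA1-1 and TRU-TCA2-1. At the edge of the rule, 373 genes lay whole under a peak and 1, TRF-GAA5-1, only in part (66 bp or 85.7% of the gene, 6.04-fold). Just outside were TRK-CTT6-1 on chromosome 18, 22 bp from a peak, TRL-CAA5-1 (149 bp) and TRF-GAA6-1 (225 bp).

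Other genes that RNA polymerase III transcribes were open as well. All 20 that were looked up lay under a peak, at a median of 87.1-fold (22.3 to 275). The highest were RPPH1, the RNA of ribonuclease P, which trims the 5′ end of tRNA, with 275-fold, the spliceosomal RNU6ATAC with 201, RMRP with 199, the signal recognition particle RNAs RN7SL1 and RN7SL2 with 185 each, and RN7SK, which restrains elongation by RNA polymerase II, with 178. BCYRN1 had the lowest, 22.3-fold. The 17 genes for 5S ribosomal RNA lay under 1 peak of 69.0-fold. The median over the 374 covered tRNA genes was 47.4-fold.

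Genes for the machinery were described by the highest summit within 1 kb of a gene end. Such a summit was listed for 84.2% of 18969 protein-coding genes, and with genes that lacked one counted as 0, here and in the lists below, the median over all of them was 47.8-fold. Of 30 genes for RNA polymerase III, its factors and its regulators, 28 had one, all above that median, at a median of 130-fold. The highest were GTF3C5, a TFIIIC subunit, with 231-fold, POLR3E with 220-fold in the peak it shares with TRL-AAG2-4, and MAF1, a repressor of RNA polymerase III, with 219-fold. GTF3A, the factor for 5S genes, and BRF1, a TFIIIB subunit, had none within 1 kb. Of 29 matched genes for tRNA processing and export, 28 had a summit, 24 of them above the median of all coding genes, at a median of 118-fold, with TSEN34, a subunit of the tRNA splicing endonuclease, at 347-fold and RPP40, a subunit of ribonuclease P, at 230. TRMT1, a tRNA methyltransferase, had none.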

How the data were processed

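Per the labels' protocols, each library took 50000 nuclei and 45 minutes of transposition and was read as pairs of 75 nucleotides. The submitters' processing notes name hg38, GRCh38.p13, Bowtie2 2.2.8, Trim Galore 0.6.5 and Picard 2.2.4, and MACS 2.1.0 and GENCODE 36 stand in the deposited peak names. Read filters, the treatment of reads that fit several places, any shift for the transposase and the libraries in the pool are not given in the sources used here. The design text counts 44 libraries and the labels describe 35.

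The deposited list holds, per peak, a score, a fold enrichment (a linear ratio), a −log10 p-value, a −log10 q-value and the summit. Score and q were not used. Per the values in the list, deposited fold equals (pileup + 1) / (background + 1) with 1 background of 93.5, and of 243638 pileups below 1000 all (100%) were whole numbers within 0.1. Exact Poisson intervals were computed from them. A constant background corrects neither copy number nor mappability. Depth per library is unknown.

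RefSeq's gene table (GRCh38.p14) gave the genes, without strand, exons or genome. Of 439 tRNA entries, 14 whose coordinates broke the order of their chromosome (entries on other scaffolds) were left out. The planned promoters of tRNA genes were not used here, and genes covered by other genes' windows (250 bases before to 50 after a start) were read in their place. The planned comparison of doxycycline-treated with untreated libraries was not run.

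Members, lists and rules were chosen with earlier results of these data known. Named peaks are the 10 highest, the 3 lowest, the 5 highest more than 10 kb from coding ends, the 5 with most tRNA genes, the highest gene of each amino acid, initiator and selenocysteine genes, uncovered genes of amino acids with 5 or fewer, clusters of 5 or more and those at the edge of the rule. Other genes named, and the sequences shown, were chosen after their values were seen. Overlap, distance and cluster steps were tested on simulated data and returned the planted answers. Python 3.11.15, numpy 2.4.6, pandas 2.3.3, scipy 1.17.1 and matplotlib 3.10.9 were used.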

Additional observations from a re-analysis of the deposited data

How the results depend on the processing

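Of 44 alternatives, 32 left their result within its limit and 12 moved it. A summit within 500 bp in place of any overlap lowered the covered share of tRNA genes from 88.0% to 65.9%. Without chromosome 6 the median fold was 53.9 (31.7 with it), the median width 2125 bp (1748), the share with a coding end within 1 kb 28.1% (18.3%), the median fold beyond 10 kb 31.8 (19.9) and the summit distance 122 bp (102). The median fold was 47.4 with 1 value per gene and 25.9 without peaks at coding ends, an alternative chosen after seeing the data. Beyond 50 kb in place of 10 kb it was 14.4. Gaps of 20 and 200 kb put 50.8% and 68.2% of genes in clusters of 5 or more (62.6% at 50 kb). In peaks under 1000 bp wide the summit distance was 67.5 bp. The more significant 50% of the list kept 361 covered genes under 265 peaks. With the 14 entries out of order, 376 of 439 genes (85.6%) were covered.

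No paired analysis was possible because the list names no library. Leaving out a replicate was not possible for that reason. Identical copies limit what a fold says of a single gene, and genes under 1 peak share its value.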
